A study of Mus musculus with 6 samples.

Results

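The genes described here are 32 named genes of glycolysis and the hypoxia response, 21 for glucose import, glycolysis and the fate of pyruvate and 11 for regulation and targets of the hypoxia-inducible factors (HIF), chosen by symbol. A gene was measured by the brightest row of the expression table that carried its symbol alone, which gave 28 of the 32 genes among 22180 genes with such a row. Glycolysis converts glucose to pyruvate and lactate in the cytosol, and hypoxia-inducible factor 1 (HIF-1) is the transcription factor that raises most of its enzymes when oxygen is low. Prolyl hydroxylases of the EGLN family mark the HIF-1 alpha subunit for destruction while oxygen is present, and HIF-1 in turn induces several of these hydroxylases, glucose transporters, the growth factor VEGFA and regulators of mitochondria. In microglia and macrophages, lipopolysaccharide (LPS) acting on the receptor TLR4 is known to shift metabolism towards lactate production and to raise HIF-1 alpha under normal oxygen.

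The cells were BV2, an immortalised mouse microglial line labelled wild type, and all 6 samples were treated with telmisartan and with LPS. The Tel+LPS group (n = 3) had telmisartan, an angiotensin receptor blocker and partial agonist of the nuclear receptor PPARG, for 2 h and then LPS for 1 h. The Tel+GW+LPS group (n = 3) had GW9662, an irreversible PPARG antagonist, in addition, again for 3 h in all. Doses are not given in the labels, and no array without LPS or without telmisartan was analysed here, so only the addition of GW9662 is measured. The samples are described as independent without naming separate cultures, so p-values cover the spread between these samples, which may be technical. Of 17 microglia and macrophage markers with a row, 15 were above the level filter, while P2ry12 (log2 level 5.87 ± 0.13 without and 5.77 ± 0.14 with GW9662, SD, n = 3) and Tmem119 (6.08 ± 0.10 and 6.04 ± 0.12), which mark resting microglia in the brain, were below it. The level filter was a mean log2 level of 6.15, the median over all rows of the table. At or above it lay 2 of 7 astrocyte, 3 of 7 neuron, 4 of 8 oligodendrocyte, 3 of 7 fibroblast, 4 of 6 endothelial and 2 of 7 lymphocyte markers, and 0 of these or of the microglia markers passed the test (limma, adjusted p under 0.05). The arrays correlated at 0.990 to 0.996, and replicate 3 of Tel+LPS and replicate 2 of Tel+GW+LPS differed most from the remaining 4 along principal component 1 (scores of 14.6 and 7.55 against -8.15 to -0.98). Counts of members without these 2 arrays, called below the arrays that stood apart, are given beside the main counts. In whole cultures, fewer cells of a kind and less RNA per cell cannot be told apart.

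With GW9662 added, none of the glycolysis or HIF genes passed the test, and their differences were small. Of the 27 genes at or above the level filter, 11 were higher and 16 lower, with differences from -0.18 to 0.18 on the log2 scale, where a positive value means a higher level with GW9662. Their median difference was -0.01, beside -0.02 over the 12212 genes tested, of which 41.2% were higher. The 95% intervals of the 27 differences reached from -0.35 at the lowest to 0.33 at the highest, so that no interval reached beyond a 1.27-fold lower or a 1.26-fold higher level. The count of members past an adjusted p of 0.05 in limma was 0 of 27, where 0.0409% of all genes passed. Without the 2 arrays that stood apart it was 0 of 27, where 0 of all 12212 genes passed. With weights for array quality it was also 0 of 27, where 0.401% of all genes passed. At an unadjusted p under 0.05 there were 2 of 27 members (7.41%), Vegfa and Egln3, beside 4.45% of all genes. Without the 2 arrays that stood apart there were 2 of 27 as well, but these were Egln3 and Slc2a6. In that fit 944 of the 12212 genes had an unadjusted p under 0.05, so this count has a higher background than the 4.45%. The groups did not overlap in 3 of 27 members (11.1%), beside 9.37% of all genes, so neither share stood far from that of all genes.

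**Figure D1:**
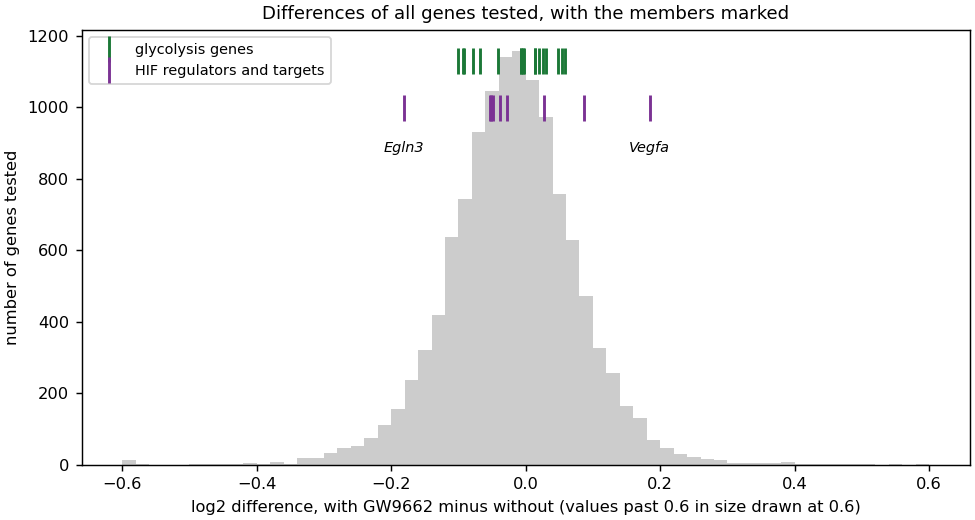
Histogram of the log2 difference (with GW9662 minus without, x axis) for the 12212 genes tested (y axis, number of genes), with green ticks for the 18 glycolysis genes and purple ticks for the 9 HIF regulators and targets. The green ticks lie between -0.10 and 0.06, and Egln3 and Vegfa are the outermost purple ticks at -0.18 and 0.18.

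Promoter sequences of the genes are shown because the pathway is defined by a DNA element. HIF-1 binds ACGTG, a form of the core of the hypoxia response element. Only the letters ACGTG were searched, on both strands in the 250 bases before each transcription start in RefSeq (GRCm38.p6). Of the 32 genes, 31 had at least 1 such window, with 46 windows in all. The motif was found in 24 of the 46 windows (52.2%), beside 16.6% of the 32851 windows of all genes. By gene, 9 of 10 HIF regulators and targets and 11 of 21 glycolysis genes had a match in at least 1 window, beside 18.5% of 27025 genes. These genes were listed for known roles in the pathway, so the higher share is a description of the list and no test was made. A match on the reverse strand reads CACGT, and CACGTG holds both overlapping matches; it was present in 10.9% of the members' windows and in 6.02% of all windows. Below are, 5′ to 3′ on the strand of the gene from position -250 to position -1, the promoters of Egln3 and Vegfa, whose differences were furthest from 0 among the tested members and opposite in sign, of Bnip3, the tested HIF target with the widest range of levels within a group, and of Ldha, which held more matches than any other window of the members. Capitals mark every ACGTG or CACGT.
Egln3, chr12:54203875-54204124, minus strand: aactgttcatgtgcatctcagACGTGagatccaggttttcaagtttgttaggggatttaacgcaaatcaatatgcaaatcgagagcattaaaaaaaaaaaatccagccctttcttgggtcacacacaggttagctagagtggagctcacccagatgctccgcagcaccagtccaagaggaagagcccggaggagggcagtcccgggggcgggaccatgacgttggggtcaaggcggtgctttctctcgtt
Vegfa, chr17:46032378-46032627, minus strand: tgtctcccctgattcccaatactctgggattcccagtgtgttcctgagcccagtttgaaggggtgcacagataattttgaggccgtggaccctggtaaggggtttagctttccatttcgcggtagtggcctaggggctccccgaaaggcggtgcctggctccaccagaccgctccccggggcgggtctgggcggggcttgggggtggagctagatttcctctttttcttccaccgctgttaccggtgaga
Bnip3, chr7:138909507-138909756, minus strand: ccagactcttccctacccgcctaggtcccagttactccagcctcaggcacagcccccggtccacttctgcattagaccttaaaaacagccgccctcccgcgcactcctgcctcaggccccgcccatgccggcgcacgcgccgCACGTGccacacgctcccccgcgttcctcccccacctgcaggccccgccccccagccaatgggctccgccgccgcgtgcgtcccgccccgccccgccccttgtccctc
Ldha, chr7:46845554-46845803, plus strand: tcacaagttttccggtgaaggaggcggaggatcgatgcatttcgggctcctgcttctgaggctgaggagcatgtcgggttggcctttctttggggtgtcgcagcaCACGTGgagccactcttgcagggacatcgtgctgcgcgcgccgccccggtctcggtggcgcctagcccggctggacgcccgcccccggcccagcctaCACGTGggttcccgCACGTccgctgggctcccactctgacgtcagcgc
Egln3 had 1 match, beginning at -229, Bnip3 had CACGTG beginning at -108, and Ldha had 5 matches, 4 of them in the 2 copies of CACGTG that begin at -145 and -48. The Vegfa window had 0 matches, and the window of its other RefSeq start had 1, beginning at -211. That other window (chr17:46025164-46025413, minus strand) lies downstream of the printed start. Vegfa counts among the genes with a match through that window alone. That no match stands in a window says only that these letters are not there. The 18 tested genes with a match had a median difference of -0.02 (7 higher, 11 lower), and the 8 without had one of -0.0058 (3 higher, 5 lower), so both sets lay close to the -0.02 of all genes. Ndrg1 had no window in the table.

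Glucose enters the cell through transporters of the SLC2A family. Slc2a1, which encodes the basal transporter GLUT1 (probe set 17417844), had log2 levels of 11.79, 11.67 and 11.73 without GW9662 and 11.78, 11.77 and 11.80 with it. The groups overlapped, and the difference was 0.05 ± 0.06 (SE). Slc2a6, which encodes GLUT6, a transporter known to rise in macrophages given LPS (probe set 17383216), lay at 9.01, 9.15 and 8.93 without and 8.82, 9.09 and 8.87 with GW9662. With GW9662, replicates 1 and 3 were below all arrays without it, and replicate 2 was above 2 of them, for a difference of -0.10 ± 0.09. Without both arrays that stood apart the difference was -0.23 (limma adjusted p = 0.609). A dim second row of Slc2a1, at a mean level of 6.08, differed by 0.05 as well.

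Hexokinases trap glucose by phosphorylation, and the 3 genes gave differences of both signs. Hk3 (probe set 17292775), the isoform of white blood cells, lay at 9.36, 9.32 and 9.39 without and 9.44, 9.41 and 9.40 with GW9662. The arrays with GW9662 were all above those without, but the difference was only 0.06 ± 0.06 (95% interval -0.08 to 0.20, limma adjusted p = 0.994). Among all genes tested, 4.01% were higher in this non-overlapping way. Hk2, the inducible isoform and a HIF target, had levels of 9.95, 9.76 and 9.99 without and 9.71, 9.97 and 9.75 with GW9662, a difference of -0.09 ± 0.09. In Hk2 the arrays of both groups fell into a high and a low set, with replicates 1 and 3 high without GW9662 and only replicate 2 high with it. Hk1, the housekeeping isoform, differed by -0.04 ± 0.06.

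Phosphofructokinase is the committed step of glycolysis, and PFKFB enzymes make its activator fructose 2,6-bisphosphate. Pfkfb4 (probe set 17522110) lay at 7.45, 7.40 and 7.45 without and 7.34, 7.42 and 7.27 with GW9662. Replicate 2 with GW9662 lay within the range of the other group, and the other 2 lay below it. The difference was -0.09 ± 0.07 (95% interval -0.24 to 0.06, limma adjusted p = 0.994), and at an unadjusted p of 0.198 this was the smallest p among the glycolysis genes. Pfkfb3, the inducible activator enzyme of inflammatory cells and a HIF target, differed by -0.07 ± 0.08, and by -0.0077 without Tel+LPS replicate 3. The 3 phosphofructokinase genes themselves differed by 0.05 ± 0.09 (Pfkl, liver type), -0.08 ± 0.11 (Pfkm, muscle type) and -0.01 ± 0.07 (Pfkp, platelet type). Pfkm took a value of 0.02 without Tel+LPS replicate 1, whose level of 7.56 was the highest of the 6 arrays. Pfkp took a positive sign when the arrays were rescaled. Gpi1, the isomerase of the preceding step, had no row and was not analysed here.

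The enzymes of lower glycolysis, which split the sugar and produce ATP and pyruvate, had differences close to 0. Pgk1, the phosphoglycerate kinase (probe set 17537088), lay at 12.62, 12.67 and 12.65 without and 12.63, 12.67 and 12.64 with GW9662. These arrays overlapped fully, and the difference of -0.0023 ± 0.06 (95% interval -0.14 to 0.13) was the smallest in size among the members; it took a positive sign in both rescalings. Tpi1, the triose phosphate isomerase, differed by 0.01 ± 0.06, Gapdh, which makes NADH in this pathway, by 0.03 ± 0.07, the mutase gene Pgam1 by 0.03 ± 0.06 and the pyruvate kinase gene Pkm by 0.02 ± 0.06. Over these 5 genes the intervals reached from -0.14 to 0.18, a bound of 1.10-fold lower and 1.13-fold higher. Gapdh is often used as a reference gene, and its brightest row lay between 12.95 and 13.10 on all 6 arrays. The other 2 rows of Gapdh differed by 0.03 and by 0.19, the latter at a mean level of 10.4 with an SE of 0.13. Aldoa and Eno1 were not analysed here, Aldoa because its row carried a second symbol.

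Pyruvate becomes lactate through LDHA and leaves the cell through the transporter MCT4, encoded by Slc16a3, while PDK1 keeps it out of mitochondria. All 3 are HIF targets, and none differed beyond its error. Ldha (probe set 17478225) lay at 9.60, 9.54 and 9.60 without and 9.57, 9.68 and 9.54 with GW9662, a difference of 0.01 ± 0.07. Slc16a3 differed by -0.0065 ± 0.06 and Pdk1 by -0.0044 ± 0.07, and both took a positive sign when the arrays were rescaled. The intervals of the 3 genes reached from -0.17 to 0.17, a bound of 1.13-fold lower and 1.12-fold higher. Over all 18 tested glycolysis genes, 8 were higher and 10 lower with a median of -0.0033, and after either rescaling of the arrays 12 were higher and 6 lower with a median of 0.02 (beside 52.0% and 52.6% of all genes higher).

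**Figure D2:**
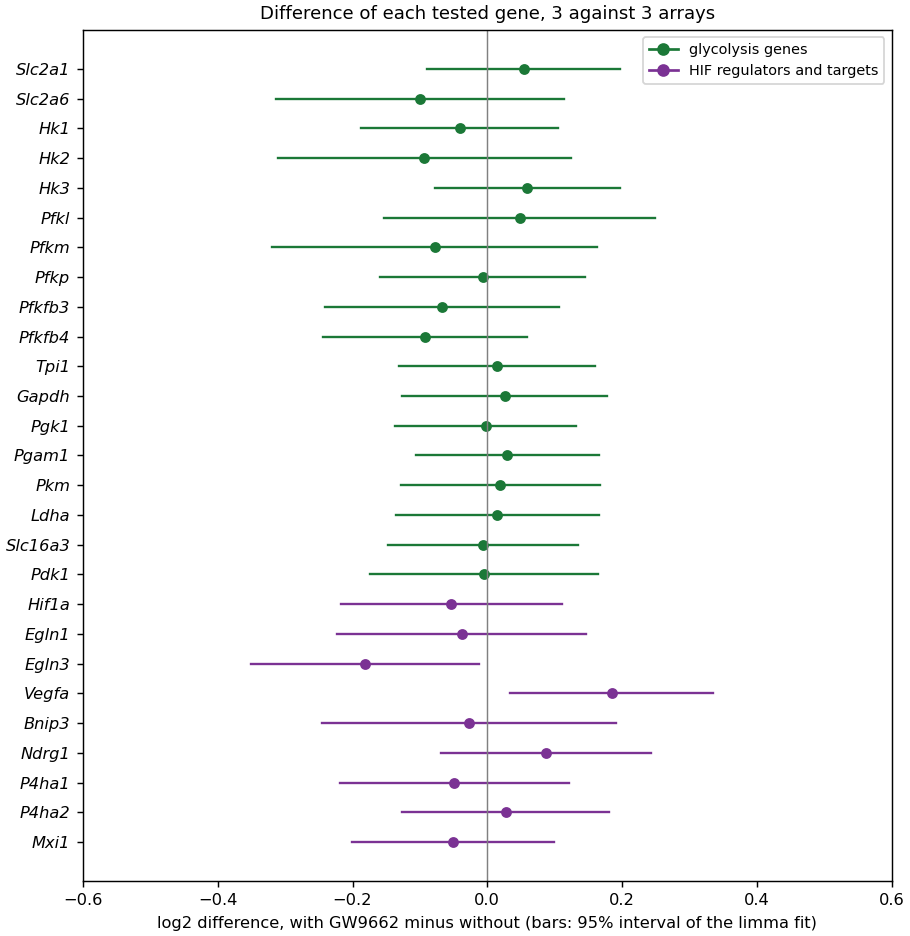
Log2 difference of each of the 27 tested genes (x axis, with GW9662 minus without, n = 3 in each group), with points for the fitted difference and bars for its 95% interval, glycolysis genes in green and HIF regulators and targets in purple. Only the bars of Egln3 and Vegfa leave out 0, and the bars of the lower glycolytic enzymes Tpi1 to Pkm stay within -0.14 and 0.18.

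Among the HIF regulators, the transcript of HIF-1 alpha itself showed no detectable difference. Hif1a (probe set 17276328) lay at 10.74, 10.65 and 10.81 without and 10.68, 10.74 and 10.61 with GW9662, and the groups overlapped (-0.05 ± 0.07, 95% interval -0.22 to 0.11). A second, dim row of Hif1a below the level filter differed by -0.14. HIF-1 alpha is controlled largely as a protein, which an array does not measure. Egln1, the main oxygen-sensing hydroxylase, differed by -0.04 ± 0.08 and took a value of 0.04 without Tel+GW+LPS replicate 3, which at 9.59 lay below the 9.75 to 9.84 of the other 5 arrays.

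Egln3, a hydroxylase gene that HIF-1 induces and whose promoter is printed above, was lower on every array with GW9662. Its levels (probe set 17281084) were 10.60, 10.52 and 10.39 without and 10.32, 10.29 and 10.36 with GW9662. The highest array with GW9662 and the lowest without, both replicate 3, were close to each other, and the groups did not overlap. The means were 10.50 ± 0.11 and 10.32 ± 0.03 (SD, n = 3), a difference of -0.18 ± 0.07 (95% interval -0.35 to -0.01), with an unadjusted p of 0.0384 and an adjusted p of 0.994 in limma. Among all genes tested, 5.36% were lower in this non-overlapping way. The difference ranged from -0.24 to -0.13 with 1 array left out, and it was -0.22 without both arrays that stood apart.

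Vegfa, the HIF target that drives vessel growth, differed in the opposite direction by about the same amount. Its levels (probe set 17345293) were 10.78, 10.80 and 10.72 without and 11.00, 10.98 and 10.88 with GW9662. All arrays with GW9662 were above all arrays without it. The means were 10.77 ± 0.04 and 10.95 ± 0.07 (SD, n = 3), a difference of 0.18 ± 0.07 (95% interval 0.03 to 0.33), or 1.14-fold, with an unadjusted p of 0.0220 and an adjusted p of 0.994 in limma. It ranged from 0.16 to 0.22 with 1 array left out and was 0.15 without both arrays that stood apart. With 3 arrays in each group and 12212 genes tested, neither Vegfa nor Egln3 passed the test, and the count of members at an unadjusted p under 0.05 was 0 without replicate 1 of either group or without Tel+GW+LPS replicate 2. The unadjusted p of Egln3 in limma was 0.0540 with no level filter, 0.102 after median centring, 0.0652 after repeated quantile normalization and 0.0754 with the replicate number as a block. That of Vegfa stayed under 0.05 in these 4 settings, at 0.0105 to 0.0459, and was 0.0906 without both arrays that stood apart.

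The other tested HIF targets lay closer to 0. Ndrg1, a stress-responsive gene induced in hypoxia (probe set 17317652), lay at 9.58, 9.71 and 9.53 without and 9.68, 9.71 and 9.69 with GW9662. The array of replicate 2 without GW9662 reached the level of the other group, and the difference was 0.09 ± 0.07 (limma adjusted p = 0.994). Bnip3, which marks mitochondria for removal and whose promoter holds CACGTG, had levels of 9.01, 8.81 and 9.15 without and 8.88, 9.04 and 8.97 with GW9662. The spread within the group without GW9662 covered all arrays of the other group, and the difference of -0.03 ± 0.09 took a positive sign without Tel+LPS replicate 3 (0.05) or Tel+GW+LPS replicate 1 (0.015). The collagen prolyl hydroxylase genes P4ha1 and P4ha2 differed by -0.05 ± 0.07 and 0.03 ± 0.07, and Mxi1, an antagonist of MYC, by -0.05 ± 0.07. The 2 rows of Mxi1 disagreed in sign, since its dim row differed by 0.04 ± 0.09. Over the 9 tested HIF genes, 3 were higher and 6 lower, with a median of -0.04, and these counts were the same after either rescaling.

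Adm, the gene of the vasodilator peptide adrenomedullin and a HIF target (probe set 17481770), was below the level filter and was not part of the main test. Its levels were 4.87, 4.71 and 4.80 without and 4.90, 5.33 and 4.99 with GW9662. The groups did not overlap, but the lowest array with GW9662 was close to the highest without, and replicate 2 with GW9662, one of the arrays that stood apart, lay far above the rest. The difference was 0.28 between group means, and with no level filter its adjusted p in limma was 1.000 (0.999839 before rounding). Ankrd37 shared its row with a second gene and was not analysed here.

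**Figure D3:**
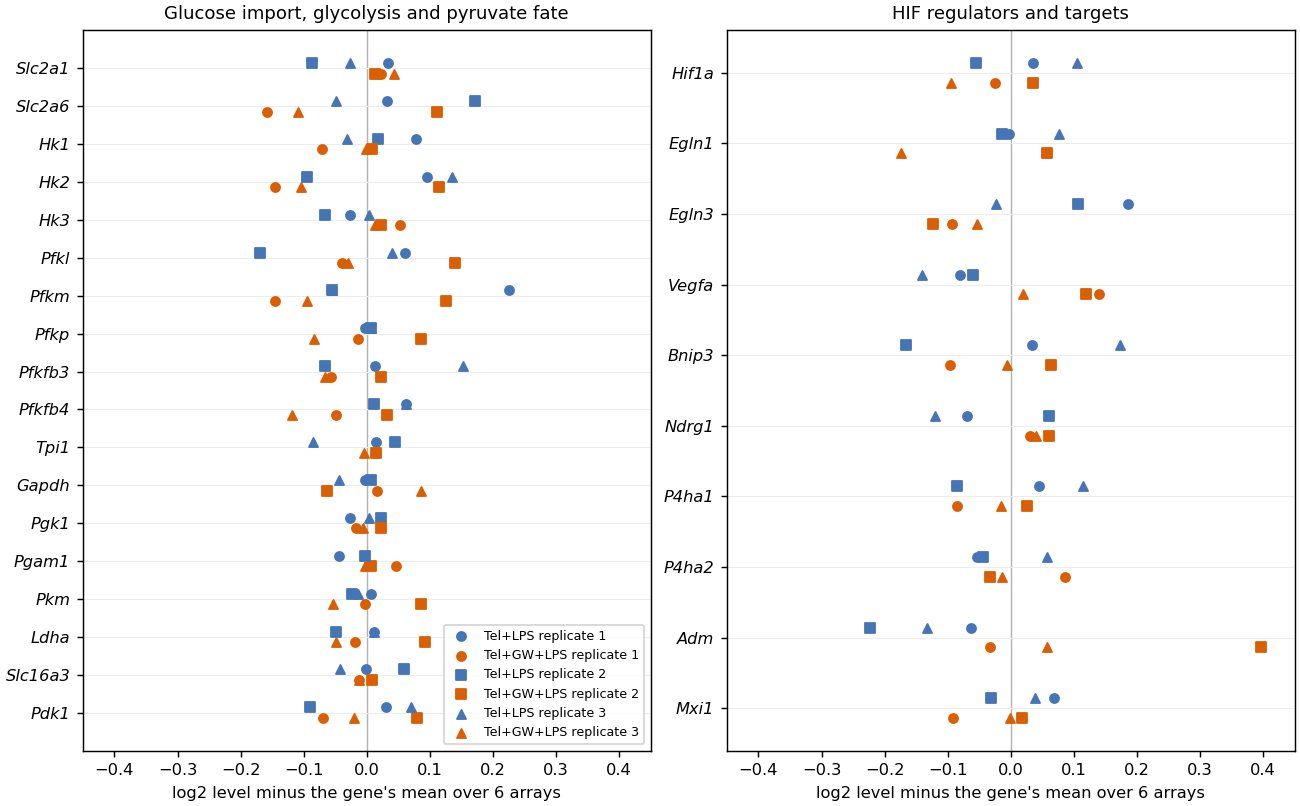
Log2 level of each of the 28 measured genes on each array (x axis, minus the gene's mean over the 6 arrays), with Tel+LPS in blue and Tel+GW+LPS in orange and symbols for replicate 1 (circle), 2 (square) and 3 (triangle). The colours separate for Hk3, Egln3, Vegfa and Adm, and the orange square of Tel+GW+LPS replicate 2 lies to the right of the other orange symbols in 18 of the 27 tested genes.

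The arrays of 1 group also differed among themselves, in a pattern that was noticed after the values were seen. Within Tel+GW+LPS, replicate 2 had the highest level in 18 of 27 genes (66.7%), 13 of them among the 18 glycolysis genes, while it was the highest in 43.3% of all genes tested. Within Tel+LPS, replicate 2 had the lowest level in 14 of 27 genes (51.9%), beside 39.4% of all genes. Both held together in 11 genes (40.7%), beside 26.0% of all genes, and these were Hk2, Pfkl, Pfkfb3, Pfkfb4, Pkm, Ldha, Pdk1, Hif1a, Bnip3, P4ha1 and Mxi1. The median level of the glycolysis genes relative to each gene's own group mean was 0.07 on Tel+GW+LPS replicate 2, against -0.02 and -0.03 on the other 2 arrays of that group, while the median over all genes was 0.01 there. Related genes outside the 32 were also high on that array, with medians of 0.10 for other glycolysis genes and 0.05 for other HIF targets. For the HIF genes the same measure was 0.05 on Tel+LPS replicate 3 and 0.04 on Tel+GW+LPS replicate 2, the 2 arrays that stood apart on the first principal component, and between -0.04 and 0.01 on the other 4. Cell type markers differed between the same arrays: on Tel+GW+LPS replicate 2 the median was -0.19 for the 3 fibroblast markers at or above the level filter and -0.09 for the 4 endothelial ones. On Tel+GW+LPS replicate 1 the fibroblast markers had a median of 0.18. Mean levels without GW9662 ran from 6.30 (Col3a1), near the filter, to 7.83 (Acta2) for the fibroblast markers. For the endothelial ones they ran from 6.47 (Pecam1) to 11.06 (Flt1). Flt1 went the other way, with 11.00 on Tel+GW+LPS replicate 2 against 10.93 and 10.95 on replicates 1 and 3. Cdh5 (6.70 against 6.93 and 7.04) and Kdr (6.36 against 6.68 and 6.48) were lowest on replicate 2, and Pecam1 lay at 6.26 against 6.35 and 6.25. Of the fibroblast markers, Col1a1 hardly differed (6.71 against 6.74 and 6.73), while Col3a1 (6.12 against 6.59 and 6.40) and Acta2 (7.70 against 8.07 and 7.89) were lower. The microglia markers had medians of 0.13 on Tel+LPS replicate 2 and -0.12 on Tel+LPS replicate 3. Not all of the 15 tested followed these medians. Ptprc (11.04, 11.01 and 11.23 on Tel+LPS replicates 1, 2 and 3), Itgam (10.85, 10.76 and 10.86) and Adgre1 (9.73, 9.74 and 9.81) were highest on replicate 3. The part of the cell type markers in the pattern was not tested.

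**Figure D4:**
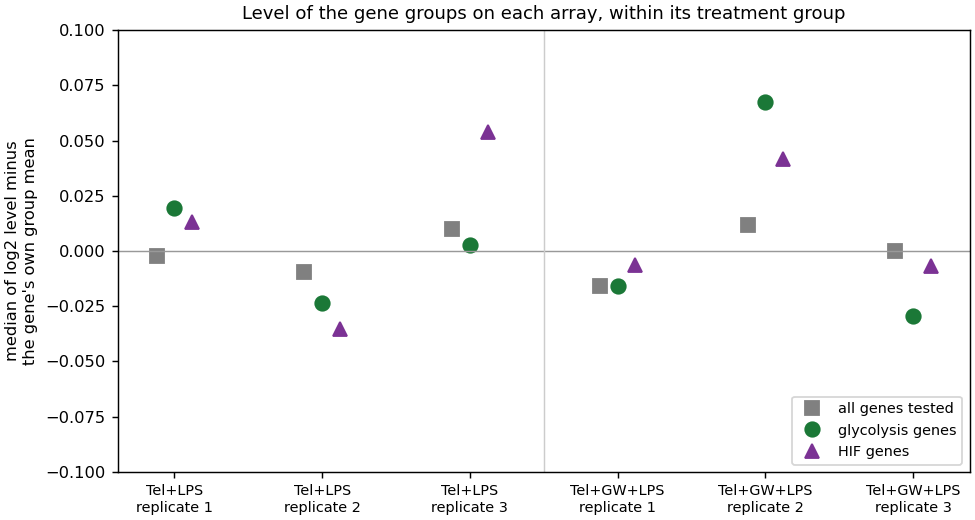
Median over a gene group of the log2 level minus each gene's mean in its own treatment group (y axis) on each of the 6 arrays (x axis), for the 18 glycolysis genes, the 9 HIF genes and all 12212 genes tested. The glycolysis genes are highest on Tel+GW+LPS replicate 2 at 0.07, and the HIF genes on Tel+LPS replicate 3 at 0.05 and Tel+GW+LPS replicate 2 at 0.04.

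Related genes outside the 32 were read from the same test. Of 33 further symbols of glycolysis and pyruvate oxidation, 21 were tested, 5 were higher and 16 lower (median -0.05), and 0 passed in either direction. The genes with the smallest p were Tigar, a phosphatase that lowers fructose 2,6-bisphosphate, at -0.15 ± 0.06, and Pdp2, which activates pyruvate dehydrogenase, at -0.14 ± 0.07. Of 17 symbols of gluconeogenesis and glycogen metabolism, 10 were tested, 7 were higher and 3 lower (median 0.05), and 0 passed. Pcx, the pyruvate carboxylase that feeds pyruvate into oxaloacetate, lay at 6.88, 6.83 and 6.95 without and 7.10, 7.22 and 7.18 with GW9662, a difference of 0.28 ± 0.07 (unadjusted p = 0.00269, adjusted p = 0.581 in limma). Pck2, the mitochondrial enzyme that turns oxaloacetate into phosphoenolpyruvate, differed by 0.22 ± 0.06 (adjusted p = 0.823 in limma). Both genes, and Gys1, the muscle glycogen synthase, were higher on all 3 arrays with GW9662 than on any without it, which makes 3 of 10 in this list beside 4.01% of all genes tested.

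Further components of the HIF pathway showed differences of both signs. Of 13 components, 11 were tested, 6 were higher and 5 lower (median 0.02), and 0 passed, with the smallest p for Epas1, which encodes HIF-2 alpha, at -0.17 ± 0.08 and for Eloc, a subunit of the ligase that degrades HIF, at -0.12 ± 0.08. Of 33 further symbols of HIF targets, 26 were tested, 15 were higher (57.7%, beside 41.2% of all genes) and 11 lower (median 0.02), and 0 passed. After rescaling by medians 18 were higher (69.2%), beside 52.0% of all genes. The same rescaling gave 6 of 21 higher for further glycolysis genes, 8 of 10 for gluconeogenesis and glycogen and 6 of 11 for HIF components. Hilpda, which inhibits fat breakdown at lipid droplets, differed by 0.23 ± 0.08 and Lox, which crosslinks collagen, by -0.33 ± 0.13. The groups of Lox overlapped. As with Vegfa and Egln3, these 2 HIF targets with the smallest p lay on opposite sides of 0. With Kdm4b (0.16 ± 0.07), 3 of the 26 (11.5%) had an unadjusted limma p under 0.05, beside 4.45% of all genes. The groups did not overlap in 4 of the 26 (15.4%), 3 higher and 1 lower, beside 9.37% of all genes.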

How the data were processed

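Expression was measured on 6 Affymetrix mouse gene arrays, 3 in each group. The authors deposited log2 levels from RMA (background correction, quantile normalization over the 6 arrays, median polish; engine 1.4.1.46 per the file headers), and the submitters' processing notes name Expression Console. Quantile normalization hides a shift shared by most transcripts. The deposited log2 table with 5 decimals was used, and one with 2 decimals was an alternative. The number of arrays, 3 in each group, limits the precision. Of 41345 rows, 23521 carried 1 symbol in the platform annotation, 1820 several and 16004 none. Of the 22180 symbols, 22139 were found in RefSeq, which also supplied the promoter sequences (GRCm38.p6). The 12212 genes with a mean level of at least 6.15 were tested with limma 3.58.1 in R 4.3.3, fitting the 2 groups and nothing else; p-values were adjusted by Benjamini-Hochberg across these genes, at a threshold of 0.05. Standard errors and 95% intervals are those of the moderated fit. The script was tested on simulated data. The genes and lists were chosen with earlier results of these data known. Every member is accounted for; values by array are given for the 3 genes of each arm with the smallest p, the one with the smallest difference and those with groups that did not overlap, and for others (Slc2a1, Hk2, Ldha, Hif1a, Bnip3) after values were seen. From each further list the 2 genes with the smallest p were named, and Gys1 and Kdm4b were added after their values were seen. Alternatives were other filters, row choice, scaling, array weights, an intensity trend, the replicate number as a block and arrays left out.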

Additional observations from a re-analysis of the deposited data

How the results depend on the processing

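The count of members past the threshold was 0 in every alternative run, with a lowest limma adjusted p of 0.110, for Egln3 with array weights. The count over all genes moved from 5 to 1 with no level filter, 16 with arrays centred on their medians, 9 with quantile normalization repeated, 49 with array weights, 13 with an intensity trend, 0 with the replicate number as a block (379 at an unadjusted p under 0.05) and 0 without both arrays that stood apart (944 at an unadjusted p under 0.05), and it was 0 to 2 with 1 array left out. The replicate block moved no call of a member past the threshold, though 1 member instead of 2 had an unadjusted p under 0.05, and deviations of same-numbered arrays correlated at 0.29, -0.45 and -0.12, so the numbers were not treated as pairs; 2 of 6 arrays correlated best with their own number. The median of the glycolysis genes was 0.019 after median centring and -0.023 to 0.011 with 1 array left out, and that of the HIF genes was -0.081 to -0.0035. Of 35 single genes followed, 22 kept their sign throughout, and the other 13 had small differences that changed sign. After median centring these were 0.018 for Pdk1, 0.015 for Pfkp, 0.020 for Pgk1 and 0.016 for Slc16a3. After repeated quantile normalization they were 0.032 for Pdk1, 0.013 for Pfkp, 0.0084 for Pgk1 and 0.022 for Slc16a3. With array weights they were -0.020 for Ldha, -0.043 for Pfkl, 0.0099 for Pgk1, -0.013 for Pkm and -0.0059 for Tpi1. Without both arrays that stood apart they were 0.013 for Bnip3, -0.018 for Ldha, -0.022 for Pkm and -0.024 for Tpi1. With 1 array left out the ranges were -0.12 to 0.051 for Bnip3, -0.076 to 0.038 for Egln1, -0.013 to 0.065 for Gapdh, -0.026 to 0.044 for Ldha, -0.010 to 0.060 for P4ha2, -0.052 to 0.031 for Pdk1, -0.025 to 0.089 for Pfkl, -0.16 to 0.017 for Pfkm, -0.051 to 0.032 for Pfkp, -0.015 to 0.0070 for Pgk1, -0.020 to 0.051 for Pkm, -0.031 to 0.021 for Slc16a3 and -0.023 to 0.040 for Tpi1. The cause of these changes was not tested. With 3 arrays a group, differences within the printed intervals could not be resolved.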
